A study of Homo sapiens with 15 samples.

Results

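The transcriptome described here is that of control HSC-5 cells, an established human line of cutaneous squamous cell carcinoma. The libraries were chosen by their label alone: 3 of the 15 RNA-seq libraries of the series carry the guide label sgNeg, and no value was used to choose them. The other 4 groups of 3 libraries each carry 1 of the guides sgPRMT5-1 and sgPRMT5-2 to PRMT5 or sgWDR77-1 and sgWDR77-2 to WDR77. They address what the loss of either gene does to squamous carcinoma cells, and were not used here. Per the labels, the sgNeg group has the genotype WT, the cell line HSC5 and the treatment Neomycin, and the Neomycin label is shared by all 5 groups. The study calls sgNeg an empty vector control in figure legends. Its methods describe viral delivery of guides to Cas9-expressing cells, and name G418 selection for the depletion experiments. The baseline is therefore that of infected and selected cells rather than of the untreated line. The labels call the 3 libraries biological replicates without saying whether the cultures were kept apart, and the replicates have no order. The reads counted on genes numbered 5824192 in replicate 1, 5806938 in replicate 2 and 5434211 in replicate 3. Levels are given as CPM, the counts of a gene scaled to a common total of reads on genes, where 1 read equals 0.172, 0.172 and 0.184 CPM in replicates 1, 2 and 3.

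Epidermal keratinocytes divide in a basal layer on the basement membrane, where the transcription factor p63 maintains them and where the paired keratins KRT5 and KRT14 form their filaments. On leaving that layer they exchange these keratins for KRT1 and KRT10, strengthen their desmosomes, and finally build a cornified envelope of cross-linked proteins such as loricrin and involucrin. Keratins of single-layered epithelia, such as KRT8, KRT18 and KRT19, are scarce in normal epidermis and can appear in squamous carcinomas, which usually keep a basal programme to a varying degree.

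One sequence is shown because its host RNA is the member of the noncoding gene list that marks stratified epithelium. The miRNA hsa-miR-205-5p is abundant in stratified epithelia and lies within MIR205HG, at chr1:209432166-209432187 on the plus strand of GRCh38.p14 (RefSeq), inside the host gene's span from 209428817 to 209432848. Its mature form is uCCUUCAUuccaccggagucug, 22 bases long, with the seed of bases 2 to 8 in capitals. Only the host RNA was measured in these libraries, and its level is given with the long noncoding RNAs.

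Replicate 2 stood apart from the other libraries, and its difference is given before the results. Mitochondrially encoded genes took 2.54% of its reads on genes (95% Wilson interval 2.53% to 2.55%). The same share was 0.953% in replicate 1 (0.946% to 0.961%) and 1.19% in replicate 3 (1.18% to 1.20%). The nuclear long noncoding RNAs MALAT1 and NEAT1 together took 0.588% of the reads of replicate 2 (0.581% to 0.594%). They took 0.177% in replicate 1 (0.173% to 0.180%) and 0.221% in replicate 3 (0.217% to 0.225%). All long noncoding genes together took 1.31% in replicate 2 against 0.7504% and 0.793% in replicates 1 and 3. More genes also had at least 1 read in replicate 2, at 20399 against 18576 and 18628. Reads that fell outside annotated genes made up 7.16% of the listed reads of replicate 2 and 2.84% and 3.56% of those of replicates 1 and 3. These shares were all highest in 1 library, and their part in the differences below was not tested. Ribosomal protein genes took 6.03%, 5.10% and 5.31% of reads in replicates 1, 2 and 3, highest in replicate 1 and lowest in replicate 2. Without replicate 2 the mean mitochondrial share changed from 1.56% to 1.07%, the ribosomal protein share from 5.48% to 5.67%, and the share of MALAT1 and NEAT1 from 0.329% to 0.199%. Keratin genes took 0.448%, 0.432% and 0.503% of reads in replicates 1, 2 and 3, highest in replicate 3. These intervals, and the floors given below, cover counting error only.

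**Figure D1:**
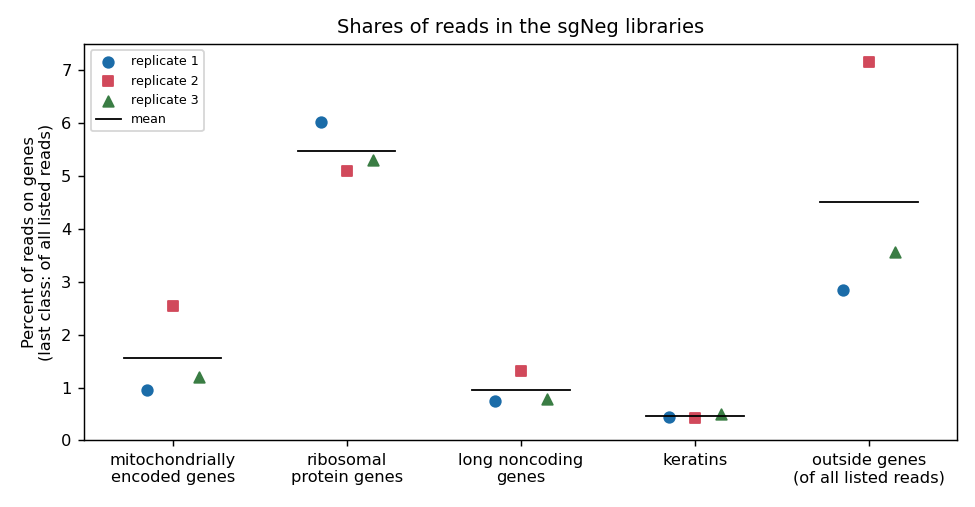
Percent of the reads on genes taken by mitochondrially encoded, ribosomal protein, long noncoding and keratin genes in each of the 3 sgNeg libraries. The last column gives reads outside genes as a percent of all listed reads. The mitochondrially encoded share is 2.54% in replicate 2 against 0.953% and 1.19% in replicates 1 and 3, while the keratin share lies between 0.432% and 0.503%.

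A gene was called detected where it reached 1 CPM in each library. Of 60649 listed genes, 12259 (20.2%) were detected, 672 reached the minimum in 2 libraries, 1022 in 1 library and 46696 in none. No library held a read for 37151 genes. Among 19942 protein-coding genes 11343 (56.9%) were detected, and 5137 (25.8%) had no read. Long noncoding genes were detected far less often, at 619 of 16780 (3.69%). A gene with 0 reads in all 3 libraries may still lie at up to 0.176 CPM over the libraries together, the level that 3 counts would give. In a single library the same limit was 0.515, 0.517 and 0.552 CPM. Detected genes spanned a wide range: 3172 had a mean between 1 and 10 CPM, 6619 between 10 and 100, 2393 between 100 and 1000, and 75 above that. Ranked by CPM, the 10 most abundant genes held 4.35% of reads on average, the 100 most abundant 17.2% and the 1000 most abundant 50.5%.

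Because long genes collect more reads, levels of different genes are set side by side only as TPM, a share of transcripts for which counts are divided by the summed length of a gene's exons. The median detected gene stood at 24.8 TPM and the median protein-coding gene of the annotation at 4.56 TPM. Values written with ± are means and SD over the 3 libraries. Where dividing by the longest transcript instead raised a named value more than 1.5 times, that value is given beside it. The source tables do not state the strand setting or the annotation release. A gene is therefore described by its share of open windows, which are 76-base exon windows that overlap no exon of another gene and occur once in the genome. In genes with few open windows a low count does not show a low level. Of 422 listed genes 11 had under 50% open windows.

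Spread over the replicates was judged gene by gene with a chi-square test of the 3 counts, adjusted over all 12066 genes with at least 30 reads in sum. At an adjusted threshold of 0.05, 2834 genes (23.5%) differed between the libraries by more than counting noise. The test compares these libraries only and says nothing about conditions. The median range of the genes past the threshold was 1.29-fold from the lowest to the highest library, 744 of them ranged at least 1.5-fold and 357 at least 2-fold. Passing depended on depth: 11.1% of the genes with a mean under 10 CPM passed, 18.1% of those between 10 and 100, 51.6% of those between 100 and 1000, and 93.3% of the 75 above. In the same order of classes among detected genes the median coefficient of variation was 21.9%, 9.22%, 6.48% and 7.80%, against 21.004%, 7.19%, 3.16% and 1.07% from counting alone. Relative to counting noise, the spread was thus little larger in poorly expressed genes and several times larger in the most abundant ones. Counting noise falls with depth, so this contrast does not show that abundant genes vary more between the libraries.

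**Figure D2:**
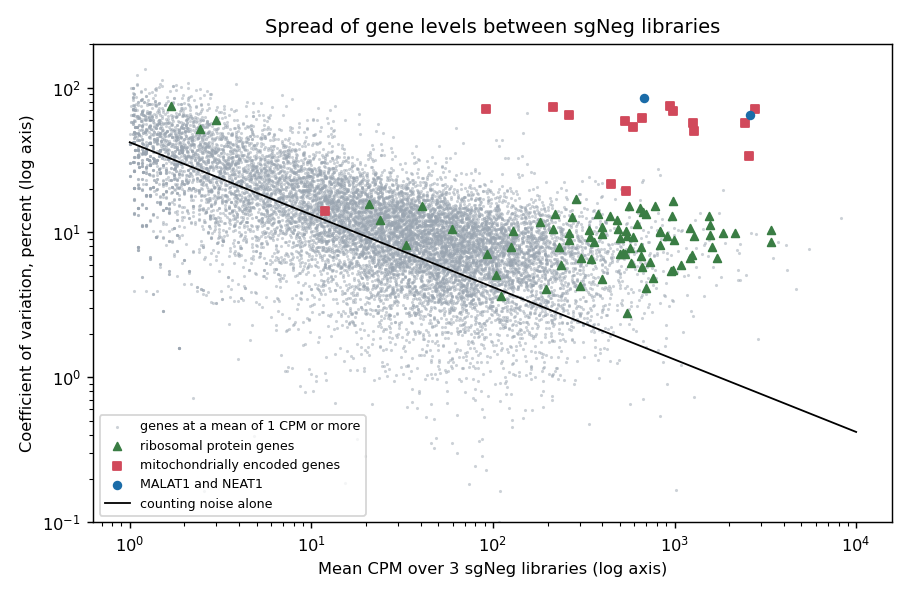
Coefficient of variation over the 3 sgNeg libraries against mean CPM for each gene, both on log axes, with the line that counting noise alone gives and with ribosomal protein genes, mitochondrially encoded genes, MALAT1 and NEAT1 marked. The median is 21.9% for detected genes under 10 CPM and 6.48% between 100 and 1000 CPM, and both noncoding RNAs and the marked mitochondrial genes other than MT-TP lie far above the line.

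Genes past the threshold were highest in replicates 1, 2 and 3 in 975, 924 and 935 cases, and lowest in 966, 1141 and 727 cases. The direction followed gene class. Of 16 mitochondrially encoded genes tested 15 passed, all highest in replicate 2. Of 80 ribosomal protein genes 69 passed, 66 of them highest in replicate 1 and 55 lowest in replicate 2. Of 574 long noncoding genes 114 passed, 98 of them highest in replicate 2. Every pair of libraries differed beyond counting noise, with a mean chi-square per degree of freedom of 4.25 for replicates 1 and 3, 7.29 for replicates 2 and 3, and 10.4 for replicates 1 and 2. Replicates 1 and 3, the pair without replicate 2, were thus the closest. With replicate 2 left out, 1319 genes passed.

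The 10 genes with the largest spread beyond counting noise at a mean of at least 10 CPM were NEAT1, MT-ND5, ANKRD10-IT1, MT-ND4L, MT-ND4, TTN, MT-ATP8, ARHGAP8, MT-ATP6 and MTATP6P1, and each was highest in replicate 2. NEAT1, the scaffold RNA of nuclear paraspeckles, stood at 294, 1339 and 404 CPM in replicates 1, 2 and 3, a range of 4.55-fold. MT-ND4, a subunit of respiratory complex I made in mitochondria, stood at 1313, 5002 and 1965 CPM. ANKRD10-IT1, a noncoding transcript, stood at 6.18, 25.0 and 9.20 CPM (chi-square test, adjusted p = 2.09e-17). The smallest range of the 10, 3.59-fold, was that of MTATP6P1, a nuclear copy of mitochondrial sequence. Leaving out replicate 2 moved the mean level of each of these 10 genes, and of MALAT1, by more than 1.5 times, and it moved no other of the 320 detected genes that could be named here by as much. For most genes below, the values with and without replicate 2 are therefore close, and those means are given over all 3 libraries.

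The 20 genes of highest TPM outside the mitochondrial genome together took 5.50% of reads, and the first 15 of them ran from 8228 down to 3647 TPM. TMSB10, which binds actin monomers, was highest by summed exon length at 8228 ± 1114 TPM, and GAPDH, a glycolytic enzyme, stood at 7631 ± 721 TPM. In each library TMSB10 was above GAPDH by summed exon length, but by the longest transcript GAPDH at 7514 TPM was above TMSB10 at 5815 TPM. Of the 20 genes, ACTG1 at 6922 TPM, RPS2 at 6871 TPM and RPL7A at 5840 TPM were also above TMSB10 by that length. The others of the 15, in falling order of TPM by summed exon length, were RPS12, FTL, RPS2, HSP90AB1, ACTG1, GSTP1, RPL7A, FTH1, RPLP0, RPS18, ACTB, SLC25A5 and EEF1A1. By function these were ribosomal protein genes, both ferritin chains, an HSP90 chaperone, actins, a translation factor, a mitochondrial nucleotide carrier and the glutathione transferase GSTP1 at 5538 ± 501 TPM. The chromatin protein HMGA1 at 3094 ± 214 TPM, the chaperone HSP90AA1 at 3049 ± 207 TPM and the RNA-binding protein YBX1 at 2920.2 ± 179.5 TPM were also among the 20. RPS2 and FTH1 have only 47.9% and 24.9% open windows, so their levels are uncertain. All 20 passed the chi-square threshold, as did 93.3% of all genes above 1000 CPM and 51.6% of those between 100 and 1000 CPM. EEF1A1, the elongation factor, showed the spread: it stood at 9455, 7672 and 7630 CPM, highest in replicate 1.

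**Figure D3:**
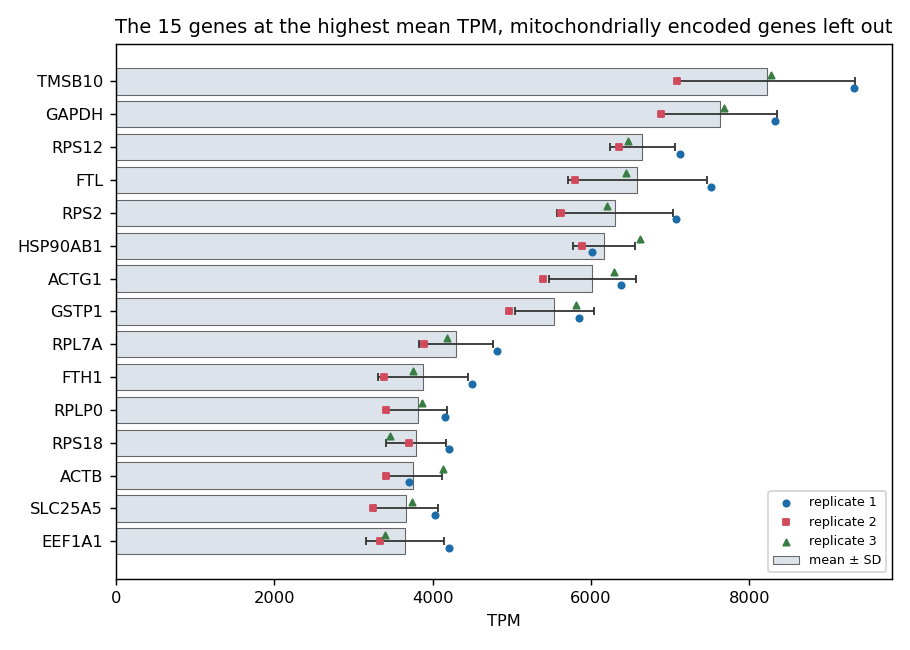
Mean TPM with SD of the 15 most abundant genes outside the mitochondrial genome over the 3 sgNeg libraries, with a point for each replicate. Levels fall from 8228 TPM for TMSB10 to 3647 TPM for EEF1A1.

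Reference genes often used for scaling were counted as a list of 11 housekeeping genes, all detected, with a summed level of 28193, 24260.1 and 26027 CPM. Of these, 9 of 11 passed the chi-square threshold, against 23.5% over all genes. TBP, the TATA-binding protein, and HPRT1, an enzyme of purine salvage, did not pass, with 27.1, 21.7 and 27.1 CPM for TBP and 204, 211 and 215 CPM for HPRT1. At a lower depth TBP ranged 1.25-fold over the libraries, more than GAPDH and ACTB at 1.18-fold each, so passing the threshold did not rank these genes by stability.

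Keratins were read first as marks of cell identity. Of 55 keratin genes 14 were detected. KRT18, a type I keratin of simple epithelia (ENSG00000111057.11, GRCh38 chromosome 12, 52948871 to 52952906), was the highest by summed exon length at 1245 ± 108 TPM, with 907, 788 and 882 CPM in replicates 1, 2 and 3. KRT17, induced in wounded and hyperproliferative epidermis, reached 1227 ± 107 TPM, and by the longest transcript it was above KRT18, at 1418 against 1293 TPM. KRT19, which is found in simple epithelia and in some stem cell compartments, stood at 1142 ± 76.9 TPM. KRT17 was above KRT19 in each library, at 1169, 1161 and 1351 against 1101, 1094 and 1231 TPM in replicates 1, 2 and 3. The place of KRT18 was not resolved: its order against KRT17 changed between libraries, and against KRT19 with the length used. Among the type II keratins KRT8, the partner of KRT18, stood at 779 ± 63.4 TPM, or at 1324 TPM by its longest transcript. KRT5, the basal type II keratin (ENSG00000186081.12, GRCh38 chromosome 12, 52514575 to 52520530), stood at 723 ± 168 TPM. Its count differed between the libraries in the chi-square test (adjusted p = 5.92e-85), at 519, 668 and 829 CPM, and replicate 3 was the highest. KRT80, named after its values were seen, was next at 163 ± 20.01 TPM. KRT15, a basal keratin linked to quiet stem cells, was at 126 ± 34.2 TPM and lowest in replicate 2, with 198, 119 and 191 CPM.

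The defining partner of KRT5 was near the limit of counting. KRT14, the type I keratin of basal epidermis (ENSG00000186847.6, GRCh38 chromosome 17, 41582279 to 41586895), had 4, 3 and 4 reads, a level of 0.646 ± 0.115 CPM, although 91.0% of its exon windows are open. In TPM the level of KRT5 was 723 and that of KRT14 was 1.28. The labels name a skin squamous carcinoma line, and by this gene the cells lacked the classical basal pair while expressing its type II member. Type I keratins other than KRT14 were plentiful: the type I genes summed to 3867 ± 291 TPM and the type II genes to 1729 ± 228 TPM. The ratio of type I to type II was 2.45, 2.21 and 2.09 in replicates 1, 2 and 3, and 1.75 by the longest transcript, so type I was in excess under either length. The 5 simple epithelial keratins KRT7, KRT8, KRT18, KRT19 and KRT20 made up 59.7%, 56.6% and 54.8% of the keratin TPM. Genes that normal epidermis expresses little thus supplied most of the keratin messages in each library.

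**Figure D4:**
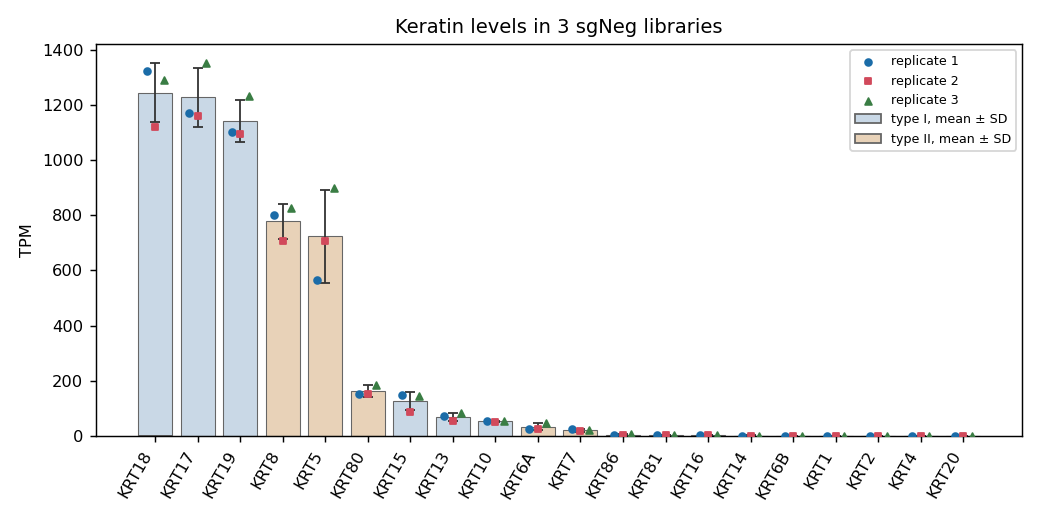
Mean TPM with SD of the detected keratins of type I and type II and of KRT14 over the 3 sgNeg libraries, with a point for each replicate. KRT18, KRT17 and KRT19 stand between 1142 and 1245 TPM, KRT8 at 779 and KRT5 at 723 TPM, and KRT14 at 1.28 TPM.

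Apart from KRT14, the basal keratinocyte list was present: 11 of 12 genes were detected, with a summed level of 3641, 3702 and 3929 CPM and a median of 186 TPM. Over all protein-coding genes 56.9% were detected, and the median was 4.56 TPM. TP63, which encodes p63 (ENSG00000073282.14, GRCh38 chromosome 3, 189631389 to 189897276), stood at 343, 364 and 360 CPM, or 212 ± 5.19 TPM, and did not pass the chi-square threshold (adjusted p = 0.366). Its 3 values differed by no more than counting noise, and without replicate 2 the mean changed only from 356 to 352 CPM. ITGA6 and ITGB4, the integrin pair of hemidesmosomes, reached 165 ± 9.07 and 286 ± 27.6 TPM. COL17A1, the transmembrane collagen of the same junction, stood at 165 ± 6.55 TPM. CDH3, the cadherin of basal cells, reached 274 ± 19.9 TPM. DST, whose product links keratin filaments to hemidesmosomes, was at 49.9 ± 5.08 TPM. Junction components of basal cells were thus expressed in all libraries. Of 11 genes tested 7 passed the chi-square threshold, beside 23.5% of all genes and 51.6% of those between 100 and 1000 CPM.

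The activated keratinocyte list held 3 detected genes of 5, with a summed level of 800.5, 815 and 936 CPM. KRT17 made up 97.2% of the summed CPM. KRT6A, the usual wound-induced companion of KRT16 and KRT17, was at 33.2 ± 12.7 TPM. It reached 17.2, 17.0 and 31.3 CPM, highest in replicate 3, and 74.2% of its windows are open beside the near-identical KRT6B and KRT6C. KRT16 had a level of only 3.09 ± 1.25 TPM, and KRT6C had no read. KRT17 was therefore not accompanied by its usual partners at a similar level.

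Few differentiation genes of the upper epidermis were detected. Of 7 suprabasal genes only KRT10 was detected, at 25.9, 25.5 and 25.4 CPM and 52.6 ± 1.14 TPM, and the list summed to 27.0, 26.0 and 25.9 CPM. KRT1, the partner of KRT10, and KRT2 had no read, so KRT10 also stood without its pair. Of 4 genes of mucosal squamous epithelium only KRT13 was detected, at 46.2, 35.3 and 53.2 CPM and 68.6 ± 14.6 TPM, while its partner KRT4 had reads in replicate 3 alone. The mucosal list summed to 46.4, 35.5 and 54.3 CPM. The cornified envelope list held 2 detected genes of 16, with a summed level of 128, 125 and 144 CPM, nearly all of it from the kallikreins KLK5 and KLK7. KLK5, a serine protease that sheds cornified cells, stood at 122, 116 and 136 CPM and 335 ± 31.9 TPM. KLK7, which KLK5 activates, was at 7.43 ± 2.57 TPM. Involucrin (IVL) reached 0.532 ± 0.197 CPM and filaggrin (FLG) 0.295 ± 0.107 CPM. The cross-linking enzyme TGM1 reached 0.646 ± 0.115 CPM. LORICRIN and SPRR3 had no read with 100% open windows, whereas TGM3 and CDSN had no read but also have 0% and 1.54% open windows, so their absence was not measured. Structural parts of the envelope were thus at or near 0, and the desquamation protease KLK5 was expressed without them.

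Simple epithelial markers were detected in 4 of 5 genes, with a summed level of 2735, 2501 and 2811 CPM. KRT7 was low at 23.2, 14.6 and 18.6 CPM and 20.9 TPM, or 36.4 TPM by its longest transcript, and KRT20, the intestinal member, had no read. All 8 genes of epithelial identity were detected, summed to 1416, 1353 and 1429 CPM. None of the 8 passed the chi-square threshold, beside 23.5% of all genes and 51.6% of those between 100 and 1000 CPM. EPCAM, an adhesion molecule of simple and carcinoma epithelia, was highest at 583 ± 34.1 TPM and 330, 303 and 322 CPM. CDH1, the E-cadherin gene, stood at 328, 312 and 338 CPM, or 238 ± 12.9 TPM. ESRP1, a splicing factor of epithelial cells, reached 251 ± 7.85 TPM. GRHL2, a transcription factor of epithelial junction genes, was at 141 ± 8.91 TPM, and ELF3, a factor of epithelial differentiation, at 145 ± 9.56 TPM.

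The mesenchymal transition list was mostly low, with 5 of 10 genes detected and a summed level of 89.6, 96.1 and 108 CPM. VIM, the vimentin gene, had a level of 0.417 ± 0.289 CPM. ZEB1 stood at 0.401 ± 0.433 CPM and ZEB2 had a read in replicate 2 alone. These 3 genes were near or under the limit of counting. Of other repressors of CDH1, SNAI1 and TWIST1 were detected at 6.72 ± 1.32 and 6.86 ± 0.187 CPM. SNAI2, which basal keratinocytes also express, led the list at 45.1 ± 9.37 TPM, followed by the N-cadherin gene CDH2 at 19.4 ± 3.21 TPM (29.3 TPM by its longest transcript). FN1, the fibronectin gene, was at 2.99 ± 0.275 TPM, below the median detected gene.

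Markers of other cell types were counted as 6 lists with 49 genes, of which 7 were detected and 27 had no read. In bulk RNA, few cells of a type and little of its RNA in every cell cannot be told apart. The fibroblast list held 2 detected genes of 10 and summed to 18.03, 19.8 and 14.7 CPM. Its leading gene COL1A1 stood at 13.05, 14.8 and 11.04 CPM, while COL1A2, whose product joins the same collagen, had no read, nor had DCN and PDGFRA. ACTA2 was detected at 3.68 ± 0.505 CPM. The melanocyte list held 3 detected genes of 7 and summed to 21.1, 17.1 and 19.5 CPM. MITF, a master factor of melanocytes, and the pigment cell gene PMEL stood at 5.76 ± 1.503 and 5.71 ± 1.25 TPM. The pigment enzyme TYRP1 was detected at 4.52 ± 0.902 TPM, and the pigment enzymes TYR and DCT had no read. The endothelial list held 2 detected genes of 6 and summed to 23.2, 17.4 and 25.2 CPM. CDH5, the cadherin of vessels, led it at 19.6, 14.8 and 22.5 CPM with all windows open, and the endothelial receptors KDR and TEK and the tight junction gene CLDN5 had no read, while VWF was detected at 3.61, 2.58 and 2.58 CPM. Each of these 3 lists thus held both detected genes and genes without a read.

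The remaining lists were empty of detected genes. The leukocyte list, with 0 of 10 detected, summed to 1.89, 2.24 and 2.02 CPM, led by CD14, and PTPRC, CD3E, MS4A1, LYZ, CD207 and CD1A had no read. LYZ has only 49.2% open windows, so its absence is uncertain. The list for Merkel and neuroendocrine cells, with 0 of 6 detected, summed to 0.343, 0.344 and 0.368 CPM, all from SYP. ATOH1, CHGA, INSM1 and NEUROD1 had no read. The list of unrelated tissues, with 0 of 10 detected, summed to 0.858, 1.03 and 1.66 CPM, nearly all from TG, and 8 of its genes had no read, among them the liver gene APOA2, the globin gene HBB and the pluripotency gene NANOG. Summed levels of these lists thus lay between 0.343 and 2.24 CPM in a library, and the origin of these reads was not tested.

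**Figure D5:**
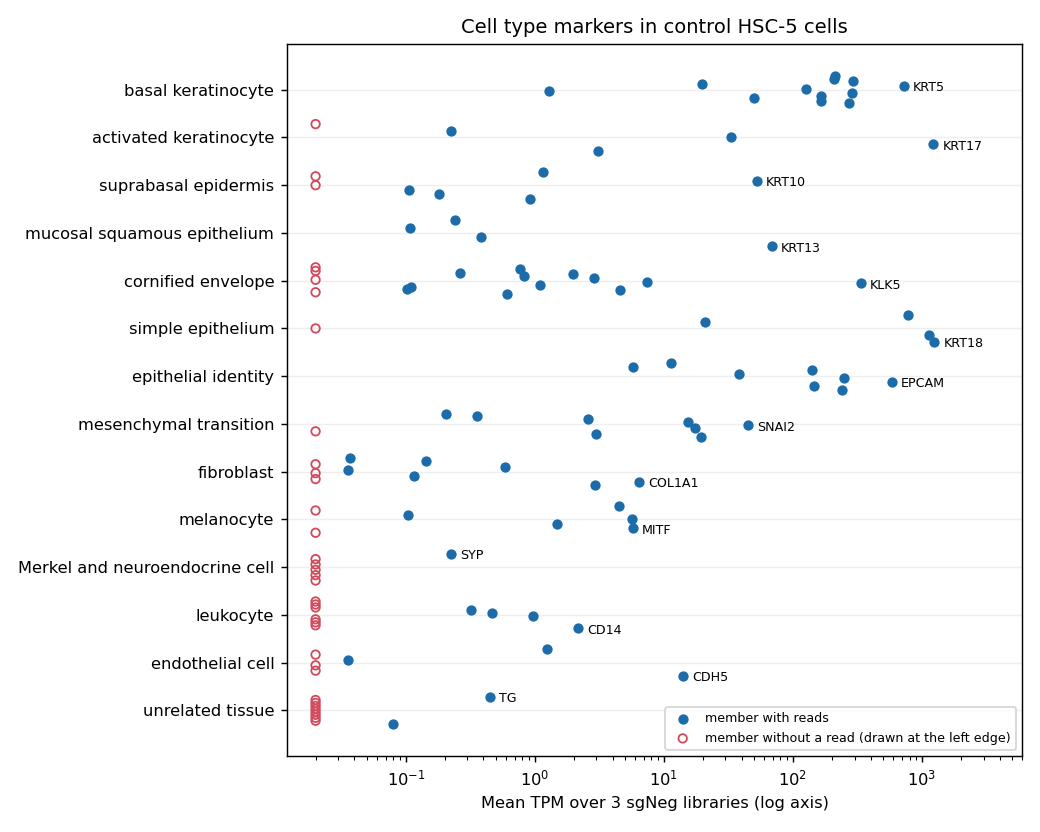
Mean TPM over the 3 sgNeg libraries of each gene of the cell type marker lists on a log axis, with open red symbols for genes without a read. Basal, simple epithelial and epithelial identity genes lie mostly above 100 TPM, and the genes of leukocytes, Merkel cells and unrelated tissues lie near or at 0.

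Transcription factors of squamous epithelium were detected in 14 of 18 cases, with a summed level of 1304, 1269 and 1310 CPM. TP63 and GRHL2, given above, stood at 212 and 141 TPM. KLF5 at 81.5 ± 5.06 TPM and KLF4 at 60.1 ± 6.22 TPM represent a proliferative and a differentiation-linked member of one family. SOX15 reached 72.2 ± 6.52 TPM and SOX2, a factor of squamous progenitors in other organs, 27.1 ± 4.50 TPM. TFAP2C stood at 61.6 ± 2.60 TPM and TFAP2A at 44.6 ± 1.63 TPM, or 67.7 TPM by its longest transcript. The factors of terminal differentiation were low or undetected. ZNF750, a p63 target that drives late differentiation, stood at 5.62 ± 0.487 CPM. GRHL3 reached 0.36 ± 0.326 CPM and PRDM1 1.53 ± 0.603 CPM, and neither was detected. TP73, the p63 relative, was at 2.25 ± 1.22 CPM and under the minimum in replicate 1. Of the 15 factors tested 2 passed the chi-square threshold, beside 23.5% of all genes and 18.1% of those between 10 and 100 CPM.

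Desmosome genes were detected in 10 of 13 cases and summed to 3195, 3257 and 3267 CPM. PERP, a p63 target of desmosomes, was highest at 747 ± 53.4 TPM, then the desmoglein DSG2 at 314 ± 9.71 TPM, the plakoglobin gene JUP at 292.2 ± 39.5 TPM and the plaque protein DSP at 259 ± 23.4 TPM. DSG2 is the desmoglein of simple epithelia, and DSG3, that of basal epidermis, stood at 45.3 ± 3.84 TPM. DSG1 and DSC1, the suprabasal cadherins, were at 0.176 ± 0.00697 and 0.172 ± 0.297 CPM, and DSG4 had no read. Of the plakophilins PKP3 reached 122 ± 17.8 TPM and PKP2 82.2 ± 2.16 TPM (137 TPM by its longest transcript), while the suprabasal PKP1 was at 6.48 ± 2.33 TPM. The desmosome profile thus joined basal and simple epithelial members, and the suprabasal ones were low or at 0.

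Integrin genes were detected in 11 of 14 cases and summed to 2764, 2566 and 2497 CPM. ITGA3, the partner of ITGB1 in laminin binding, stood at 288 ± 10.9 TPM beside ITGB4 at 286 TPM, or at 365 and 232 TPM by their longest transcripts. ITGB1, the common beta chain, stood at 183 ± 14.1 TPM, or 336 TPM by its longest transcript. ITGB6, an integrin of wounded and carcinoma epithelium, was at 50.2 ± 4.97 TPM. ITGA4, a chain of leukocyte integrins, and ITGA9 had no read. Of 16 basement membrane and matrix genes all were detected, summed to 2542, 2698 and 2556 CPM. Laminin chains of the basal anchor were uneven, with LAMB3 at 290 ± 26.6 TPM and LAMA3 at 19.9 ± 2.37 TPM. COL7A1, the anchoring fibril collagen, stood at 118, 205 and 140 CPM, highest in replicate 2 (chi-square test, adjusted p = 3.25e-31). LAMB1, COL4A1 and COL4A2, at 52.9, 23.4 and 38.8 TPM, rose to 103, 37.2 and 82.1 TPM by their longest transcripts. Of the 15 matrix genes tested 10 passed the chi-square threshold, beside the same shares of all genes as given for the basal list.

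Matrix proteases and their partners were detected in 12 of 16 cases and summed to 1090, 937 and 987 CPM. PLAU, the urokinase gene, led at 517 ± 68.2 TPM with 387, 306 and 335 CPM, highest in replicate 1. Its receptor PLAUR was at 16.5 ± 2.97 TPM (32.3 TPM by its longest transcript). MMP14, a membrane-bound protease, reached 313 ± 22.9 TPM, and TIMP1, a secreted inhibitor, 178 ± 26.3 TPM. The secreted collagenases MMP13 and MMP1 stood at 86.6 ± 2.24 and 63.6 ± 20.8 TPM. MMP9 had no read, and MMP2, typical of stroma, was at 1.11 ± 0.428 CPM. Of the proteases named here, PLAU and MMP14 were thus the highest. Of 10 clade B serpins, intracellular protease inhibitors, 8 were detected and summed to 536, 505 and 453 CPM. SERPINB1 held 55.5% of their summed CPM and stood at 403 ± 49.4 TPM. SERPINB5, the maspin gene, was at 65.6 ± 5.43 TPM, and the squamous antigen genes SERPINB3 and SERPINB4 were at 1.22 ± 1.19 and 2.39 ± 0.639 CPM. SERPINB3 was undetected, with 30.6% open windows and with 2.58, 0.344 and 0.736 CPM in replicates 1, 2 and 3, so its mean rested mostly on replicate 1.

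The S100 list held 8 detected genes of 12, summed to 2229, 1879 and 2091 CPM, with a median of 309 TPM. S100A2, a p63 target of basal cells, stood at 2053 ± 205 TPM beside S100A11 at 2020 ± 263 TPM, within their spread, or at 2296 and 1645 TPM by their longest transcripts. S100A14, an epithelial member, stood at 1407 ± 112 TPM and S100A10, the annexin partner, at 1135 ± 114 TPM. Of the alarmins of inflamed epidermis, S100A7 and S100A12 had no read, and S100A8 was at 0.409 ± 0.0925 CPM. S100A9 stood at 17.3, 7.23 and 6.07 CPM and 79.4 ± 48.9 TPM. Its CPM mean changed from 10.2 to 6.65 CPM without replicate 1, the only one of the 320 detected genes named here that leaving out replicate 1 moved more than 1.5 times.

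Cell cycle genes were all detected, 24 of 24, with a summed level of 5695, 6026 and 6258 CPM and a median of 155 TPM against 24.8 TPM over detected genes. CCND1, the cyclin that starts the cycle with CDK4 or CDK6, led at 1182 ± 13.5 TPM with 1245, 1306 and 1249 CPM. Its relatives CCND2 and CCND3 were at 31.6 ± 4.21 and 28.6 ± 6.17 TPM, the latter at 48.7 TPM by its longest transcript. CDK4, with 51.2% open windows, stood at 164 ± 15.3 TPM and CDK6 at 65.0 ± 7.97 TPM. PCNA, the polymerase clamp, reached 676 ± 81.6 TPM, CCNB1, the mitotic cyclin, 621 ± 66.0 TPM and TOP2A 462 ± 11.9 TPM. MKI67, the proliferation antigen, stood at 889, 1100 and 977 CPM, highest in replicate 2 (chi-square test, adjusted p = 3.35e-25). The helicase subunit gene MCM7 was at 242, 248 and 304 CPM, highest in replicate 3. Of the 24 genes 12 passed the chi-square threshold, beside 51.6% of all genes between 100 and 1000 CPM. Of these 12, 10 were highest in replicate 3, while MKI67 and CDK6 were highest in replicate 2.

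Of 7 CDK inhibitors 6 were detected, summed to 209, 202 and 206 CPM. CDKN1A, which encodes p21, stood at 66.8 ± 8.23 TPM with 43.6, 40.8 and 50.6 CPM. CDKN1B, the p27 gene, stood at 47.8 ± 1.75 TPM, or 72.1 TPM by its longest transcript. CDKN2A, the gene of p16 and ARF, was at 17.7 ± 1.41 TPM or 46.4 TPM, so the order of the inhibitors depended on the length used. CDKN1C, the p57 gene, was at 0.815 ± 0.488 CPM and undetected. Among stress response and cell death genes, GDF15, a secreted stress product, stood at 254 ± 40.1 TPM and 140, 112 and 106 CPM, highest in replicate 1. MDM2, a ubiquitin ligase, stood at 78.2 ± 5.47 TPM and BAX, an effector of cell death, at 83.6 ± 9.91 TPM. MDM4, the partner of MDM2, was at 35.9, 63.7 and 38.6 CPM, highest in replicate 2, and BBC3, another death effector, was at 6.30 ± 1.16 CPM.

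PRMT5 acts with WDR77 in a complex that dimethylates arginines symmetrically, and adaptors bring it its substrates. All 9 genes of that list were detected, summed to 854, 818 and 886 CPM. PRMT5, the enzyme, stood at 59.9, 52.0 and 68.8 CPM (chi-square test, adjusted p = 0.00742, range 1.32-fold), lowest in replicate 2. WDR77, its cofactor, did not pass the test and reached 203 ± 9.03 TPM against 81.8 ± 12.4 TPM for PRMT5. The cofactor was thus above the enzyme per length, with the reserve that the open windows are 72.6% for PRMT5 and 58.8% for WDR77. Among the adaptors CLNS1A stood at 133 ± 9.08 TPM, COPRS at 106 ± 3.17 TPM and RIOK1 at 63.6 ± 2.98 TPM. The substrate genes SNRPB, SNRPD1 and SNRPD3, which encode spliceosome proteins, were at 148 ± 15.7, 110 ± 6.86 and 33.99 ± 6.53 TPM. MTAP, whose loss raises a metabolite that inhibits PRMT5, was expressed at 125, 151 and 135 CPM. Of 8 other arginine methyltransferases 7 were detected and summed to 511, 474 and 527 CPM. PRMT1, the main enzyme of asymmetric dimethylation, led at 178 ± 18.8 TPM, or 357 TPM by its longest transcript. PRMT7 stood at 11.2 ± 1.81 TPM (23.6 TPM by its longest transcript), and PRMT8, the member of brain, had no read.

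A list of ubiquitin ligases chosen for p63 was detected in full, 7 of 7, and summed to 580.0, 609 and 561 CPM. MDM2 stood at 78.2 TPM and ITCH at 66.1 ± 2.14 TPM, but at 61.4 and 86.1 TPM by their longest transcripts, so their order depended on the length. The others were WWP1 at 62.1 ± 3.45 TPM, STUB1 at 31.4 ± 3.49 TPM and NEDD4 at 31.3 ± 0.115 TPM. FBXO30 stood at 51.5, 52.2 and 53.5 CPM and FBXW7 at 27.8, 31.5 and 27.8 CPM.

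Growth factor receptors were detected in 8 of 10 cases, summed to 1910.3, 1985 and 1849 CPM. MET, the receptor of hepatocyte growth factor, and EGFR stood at 254 ± 10.3 and 253 ± 12.7 TPM by summed exon length, but at 189 and 288 TPM by their longest transcripts, so their order depended on the length. EGFR stood at 886, 974 and 861 CPM. ERBB2 and ERBB3, its partners, reached 53.7 ± 2.31 and 46.9 ± 2.17 TPM, and ERBB4 was undetected. FGFR3 was at 65.6 ± 6.12 TPM and FGFR2, the epithelial receptor, at 16.9 ± 0.705 TPM or 32.4 TPM by its longest transcript, while FGFR1 was undetected. AXL, a receptor often high in mesenchymal cells, stood at 43.6 ± 4.47 TPM. Ligands of EGFR and its relatives, with NRG1 among them as a ligand of the relatives, were detected in 7 of 8 cases. They summed to 298, 299 and 280 CPM. AREG and EREG, neighbouring genes for amphiregulin and epiregulin, stood at 100 ± 1.54 and 98.1 ± 7.22 TPM. TGFA reached 60.8 ± 4.21 TPM, HBEGF 36.4 ± 2.89 TPM and EGF itself 4.10 ± 0.603 TPM. Receptor and several of its ligands were thus expressed by the same cultures.

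Cytokine genes were detected in 15 of 21 cases and summed to 1219.6, 933 and 951 CPM, highest in replicate 1. CXCL8, a neutrophil attractant, stood at 433, 277 and 308 CPM (chi-square test, adjusted p = 6.25e-50) and 584 ± 148 TPM. CXCL1 stood at 556 ± 98.7 TPM and was also highest in replicate 1, at 202, 147 and 162 CPM. The interleukin-1 genes IL1A and IL1B were at 332 ± 51.2 and 150 ± 12.3 TPM, and their antagonist IL1RN at 10.4 ± 1.71 TPM. IL6 reached 6.51 ± 2.89 CPM. CSF1 and LIF stood at 89.1 ± 9.68 and 60.6 ± 8.25 TPM, and CXCL5, CCL2 and TNF had no read. The antigen presentation list held 11 detected genes of 14 and summed to 892, 763 and 810.1 CPM. B2M, the light chain of class I molecules, led at 456 ± 44.1 TPM, and HLA-C at 371 ± 40.7 TPM stood above HLA-B at 10.9 ± 1.75 TPM. Alleles that differ from the reference can lose reads and HLA-B has 50.2% open windows, so these heavy chains cannot be ranked with certainty. TAP1, a subunit of the peptide transporter, stood at 43.3 ± 3.96 TPM, and its partner TAP2 had no read. Of the TAP2 windows 82.1% are open and 17.9% overlap another gene on the same strand. The annotation used for counting is not known, so its absence remains uncertain. Of class II genes, HLA-DRA was detected at 1.82 ± 0.685 CPM, as were the chaperone CD74 at 12.02, 7.23 and 10.1 CPM and the activator CIITA at 3.06 ± 0.536 CPM. HLA-DRB1 and HLA-DPA1 were undetected.

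Surface proteins studied as tumour targets were detected in 11 of 12 cases. CD44, a hyaluronan receptor, reached 230 ± 4.35 TPM, CD276 106 ± 11.02 TPM and NECTIN4 70.0 ± 6.55 TPM. CD274, the gene of PD-L1, stood at 24.04, 24.3 and 18.03 CPM and 23.9 ± 3.67 TPM, near the median detected gene. Cancer-testis antigens, silent in most adult tissues, were split between expressed genes and genes at 0. MAGEA4 stood at 278, 266 and 278 CPM and 362 ± 14.5 TPM, and PRAME at 16.1, 15.7 and 15.5 CPM. The other 10 of 12 had no read in any library. Among these, MAGEA1, MAGEB2 and MAGEC2 have 100% open windows, MAGEA3 and MAGEA6 have 56.8% and 55.2%, and CTAG1B has 0%, so for CTAG1B absence was not measured. The list summed to 294, 282 and 294 CPM, and MAGEA4 did not pass the chi-square threshold.

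NRF2 is the factor of the oxidative stress response. A list of its targets, which also holds its own gene NFE2L2 and its regulator KEAP1, was detected in 14 of 14 cases. It summed to 3585, 3585 and 3646 CPM with a median of 71.9 TPM. NQO1, a quinone reductase, led at 1138 ± 65.7 TPM with 779, 723 and 780 CPM. TXNRD1, the thioredoxin reductase, reached 779.5 ± 17.3 TPM, GCLM 202 ± 15.8 TPM and the cystine carrier SLC7A11 178 ± 18.6 TPM. GCLC was at 155 ± 5.61 TPM (249.8 TPM by its longest transcript) and NFE2L2, the gene of NRF2, at 64.5 ± 7.66 TPM (134 TPM by its longest transcript). HMOX1, a target shared with the haem response, was at only 16.5 ± 6.81 TPM. SRXN1 has 6.31% open windows, so its 1.59 ± 0.236 CPM says little. Genes of quinone and thiol reduction were thus among the high members. The glycolysis and hypoxia list was detected in 12 of 12 cases and summed to 13253, 12114 and 13682 CPM, lowest in replicate 2. After GAPDH came ENO1 at 1959 ± 187 TPM, TPI1 at 1732 ± 206 TPM and PKM at 1368 ± 148 TPM, the last at 2750 TPM by its longest transcript. LDHA stood at 488 ± 44.4 TPM, or 928.5 TPM by its longest transcript, HIF1A at 491 ± 6.37 TPM and the glucose carrier SLC2A1 at 352 ± 23.8 TPM. CA9, a hypoxia marker with 47.8% open windows, was at 33.0 ± 11.4 TPM. ALDOA stood at 7.83 ± 3.86 CPM, far below the neighbouring enzymes per length, but only 32.4% of its windows are open and 55.9% overlap another gene on the same strand.

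Of 10 named long noncoding RNAs 8 were detected, and their sum of 2109, 6329 and 2535 CPM was highest in replicate 2. Its mean changed from 3658 to 2322 CPM without replicate 2, the only list moved by more than 1.5 times. MALAT1, a nuclear speckle RNA, made up most of it, at 1472, 4538 and 1809 CPM and a mean of 2606 CPM, or 1640 CPM without replicate 2. MIR205HG, the host of the miRNA shown above, stood at 173, 210 and 139 CPM (chi-square test, adjusted p = 5.48e-16) and 218 ± 41.7 TPM. GAS5, a host of small nucleolar RNAs, reached 108 ± 19.3 TPM and SNHG1, another such host, 52.9 ± 6.47 TPM. PVT1, the neighbour of MYC, was at 4.25 ± 1.499 TPM, or 31.3 TPM by its longest transcript. TINCR, a differentiation-linked RNA of epidermis, was at 1.99 ± 0.428 CPM, HOTAIR was undetected and MEG3 had no read. The low TINCR level stood beside the low levels of the structural envelope genes, and the high MIR205HG level beside that of TP63.

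Over all 41 lists, 296 of 422 genes were detected and 61 had no read. Of 294 tested genes 128 (43.5%) passed the chi-square threshold, against 23.5% of all genes tested. As the share passing rose with depth in the classes above, nothing particular to the lists is read from it.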

How the data were processed

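RNA-seq counts of the 3 sgNeg libraries were analysed, 1 deposited table per library. Per the methods, the authors placed single reads of 76 bases on hg38 using STAR, then htseq-count gave a count for each gene. The deposited values, declared in the unit "other" because the unit check could not split the tables, were whole-number counts. Normalised values were not used, and the comparison with DESeq2 that the authors made between knockouts and controls was not repeated here. The labels name a TruSeq Stranded mRNA protocol and the methods of the study a TruSeq RNA kit, so the strand setting is not certain. The 5 summary rows of htseq-count were kept out of the totals. Of the listed reads, 2.84%, 7.16% and 3.56% fell outside genes, 7.69%, 7.09% and 7.60% were ambiguous and 13.1%, 11.2% and 11.7% were not unique in replicates 1, 2 and 3. The totals on genes were 5824192, 5806938 and 5434211, so that 3 reads correspond to 0.515, 0.517 and 0.552 CPM.

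CPM were counts over the library total. TPM used the summed exon length of GENCODE release 44, to which 60463 of 60649 genes were matched by identifier, 54131 with the same version. The 186 unmatched genes held between 0.0639% and 0.109% of reads and have no TPM. Detection required 1 CPM in each library. Each gene with a summed count of at least 30 was tested by chi-square with 2 degrees of freedom against TMM-scaled totals, and p-values were adjusted by the method of Benjamini and Hochberg at 0.05. TMM factors, written out in the code with trims of 0.3 and 0.05, were 0.997, 1.005 and 0.999. Python 3.11.15, numpy 2.4.6, scipy 1.17.1, pandas 2.3.3, numba 0.67.0 and matplotlib 3.10.9 were used, and the procedures were tested on simulated data.

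The libraries were taken by label, and the members and gene lists were chosen with earlier results of these data known. The genes named were members of the 41 lists (the members highest in TPM, the defining members at 0, and those that answer the question of a list), the 20 genes of highest TPM outside the mitochondrial genome, and the 10 most variable genes of at least 10 CPM. PRMT5, WDR77, TP63, CDKN1A, MKI67, ITCH, FBXO30, FBXW7 and KRT17 were named as genes of the study. Alternatives covered the detection minimum, the scaling, the minimum count, the gene length and each replicate left out. The 12 knockout libraries were left out because only the baseline is described, and some genes of the lists are not reported here.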

Additional observations from a re-analysis of the deposited data

How the results depend on the processing

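The number of detected genes, 12259, was the same under TMM scaling and under size factors as a median of ratios. It was 13354 at 0.5 CPM, 9940 at 5 CPM, 11507 at 10 counts in each library and 15403 at a mean TPM of at least 1. Without 1 replicate it lay between 12404 and 12529. All 446 named CPM values stayed within the SD over the replicates under both scalings. TPM depended more on the length: by the longest transcript 220 of 446 values moved beyond their SD, and 33 of 385 genes rose more than 1.5 times, with a median ratio of 0.918, a lowest of 0.700 and a highest of 7.37 for PVT1.

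The number of genes past the chi-square threshold depended most on the libraries. It was 2784 on library totals alone, 2787 by median of ratios, and 2843 and 2718 with at least 10 and 100 reads in sum. With 1 replicate left out it lay between 1319 and 1882, in a test with fewer libraries and 1 degree of freedom. With mitochondrially encoded genes left out, an alternative chosen after seeing the data, it was 2860.

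With non-mitochondrial reads as the denominator, the 100 most abundant genes held 16.2% of reads, a list from which the mitochondrial genes had dropped. Mitochondrially encoded genes were also left out of the totals, an alternative chosen after seeing the data. Through the smaller total, 7 of 441 named CPM values and 3 summed levels moved beyond their SD. The summed levels were those of CDK inhibitors, at 209 CPM, of desmosome genes, at 3292 CPM, and of the NRF2 list, at 3663 CPM.

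No paired analysis was possible because only 1 group was analysed. Depth limits the description: at 5434211 to 5824192 reads on genes, a level under 0.515 CPM cannot be told from 0 in 1 library. With 3 libraries of 1 line, spread between lines was not measured. Open windows take the annotation as given, and protein levels were not analysed here.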

Other observations

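Notch pathway genes, which guide keratinocyte differentiation, were detected in 7 of 9 cases and summed to 1274, 1368 and 1385 CPM. HES1, a direct target, led at 352 ± 60.9 TPM with 136, 161 and 192 CPM (chi-square test, adjusted p = 1.71e-10), highest in replicate 3. The receptors NOTCH2, NOTCH3 and NOTCH1 stood at 164 ± 2.71, 78.6 ± 3.60 and 45.4 ± 3.19 TPM, and NOTCH4 was undetected. Of the ligands, JAG2 reached 112 ± 13.98 TPM, JAG1 42.9 ± 3.11 TPM and DLL1 16.7 ± 1.21 TPM. HEY1, another target, was at 0.475 ± 0.226 CPM. Of the MYC network 6 of 7 genes were detected, summed to 532, 506 and 491 CPM. MYC made up 67.9% of their summed CPM and stood at 252 ± 12.6 TPM, MAX stood at 49.3 ± 3.13 TPM, and MYCN had no read.

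The chromosome 9 region 9p21, often deleted in carcinomas, was expressed in 8 of 10 listed genes, summed to 255.5, 278 and 256.3 CPM. MTAP, at 137 ± 13.1 CPM, CDKN2A, at 15.5 ± 1.48 CPM, and CDKN2B, at 20.5 ± 3.13 CPM, all had reads in every library, and HACD4 and IFNE were undetected. Oncofetal genes were detected in 5 of 8 cases, summed to 202, 224 and 193 CPM. IGF2BP2 stood at 62.3 ± 3.70 TPM and IGF2BP3 at 42.0 ± 2.29 TPM, or at 54.9 and 59.3 TPM by their longest transcripts, while IGF2 and LIN28B had no read and TERT was at 0.643 ± 0.354 CPM. SOD2, singled out after its values were seen, was the most abundant gene without a matched identifier, at 1037, 796 and 595 CPM, and has no TPM.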
